A study of Mus musculus with 18 samples.

Results

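Brain cortex of Dp16_2xIFNRs mice was set against that of wild-type (WT) mice, across all genes that were expressed. The comparison used 12 of the 18 libraries of the series, 6 Dp16_2xIFNRs and 6 WT. Libraries were assigned to these groups by the genotype in their labels, and no measured value entered the choice. The remaining 6 libraries, from Dp16 mice, entered the fit to estimate the spread between libraries and are used below where a difference from Dp16 is named. WT mice were labelled as C57BL/6J. Dp16 mice carry a duplicated stretch of chromosome 16, which puts its genes at 3 copies in place of 2. Dp16_2xIFNRs mice carry the same duplication, and their labels describe the dosage of the interferon receptors as normalized, so that Ifnar1, Ifnar2, Ifngr2 and Il10rb, the 4 genes of the receptor cluster, are at 2 copies. How the receptor copy number was changed, and the strain background of the duplication genotypes, are not stated in the labels. Each group had 3 males and 3 females. The mice were 17.1 to 18 weeks old, and no treatment is listed for them. Polyadenylated RNA was sequenced, and values are given as CPM, read counts scaled to a library size common to all samples.

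The duplicated stretch of mouse chromosome 16 holds many of the genes that lie on human chromosome 21, and mice with the duplication are used to model trisomy 21, the cause of Down syndrome. Type I interferons signal through a receptor built from IFNAR1 and IFNAR2, interferon gamma through a receptor that contains IFNGR2, and several cytokines of the interleukin 10 family through receptors that contain IL10RB. These receptors activate kinases of the JAK family and STAT transcription factors, which switch on interferon-stimulated genes, including antiviral effectors and the genes of antigen presentation. In brain tissue such genes are expressed by microglia, astrocytes, vessel cells and neurons.

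Library totals ran from 47554526 to 52006799 counts in WT and from 47912340 to 61150849 in Dp16_2xIFNRs. Of 55385 genes in the table, 18717 had enough counts to be tested. The labelled tissue was checked with 16 marker genes of cortical excitatory neurons, all of which were tested, with a summed level of 2551 to 3190.0 CPM in WT and 2499 to 2862 in Dp16_2xIFNRs. The summed level of 11 striatal markers ran from 869 to 2038 CPM in WT and from 754 to 2314 in Dp16_2xIFNRs, so libraries of both groups differed in it by a similar range. WT replicate 6 was the lowest WT library in 24 of the 41 gene lists examined, among them most immune and glial lists, and values without it are given beside those that moved. WT replicate 5 stood apart in choroid plexus genes. Medians given for lists are medians of the log2 fold changes of their tested genes. Counts of list members are to be read beside the 18602 tested genes outside the duplicated stretch. Of these, 9281 lay above WT, and 0.403% were called higher and 0.312% lower, as defined below. In whole tissue, fewer cells of a type cannot be told apart from less RNA of that type per cell. Libraries of a group carry different identifiers and differ in sex and age, but what 1 library stands for is not spelled out, so p-values measure the spread between these samples. An identifier number in the library names recurs across genotypes for 11 of the 18 libraries, among them 3 pairs of a WT and a Dp16_2xIFNRs library, whose deviations from their group means correlated at 0.104 to 0.308. Both libraries of each of these pairs are also of the same sex. A fit with this number as a block leaves 4 residual degrees of freedom in place of 14, and its adjusted p is given where it ends a call. A gene is called where the adjusted p (edgeR's quasi-likelihood test, Benjamini-Hochberg adjustment over all 18717 genes) was below 0.05.

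The 4 receptor genes lay close to their WT level. CPM values of a group are given as the lowest, the median and the highest of its 6 libraries, and log2 fold changes with their standard error (SE). Ifnar1 read 41.3, 43.5 and 50.1 CPM in WT and 44.1, 45.6 and 47.2 CPM in Dp16_2xIFNRs (log2 fold change 0.04, SE 0.0448, adjusted p = 0.805). Ifngr2 read 38.6, 39.6 and 43.1 CPM in WT and 37.5, 42.3 and 45.6 CPM in Dp16_2xIFNRs (0.06, SE 0.0493). Libraries of both groups were intermixed in both genes. Ifnar2 read 12.3, 14.6 and 16.7 CPM in WT against 13.7, 14.7 and 15.5 CPM (-0.01, SE 0.0631). Il10rb, a chain that several interleukin 10 family receptors share, read 5.69, 6.66 and 8.01 CPM against 5.94, 6.56 and 6.93 CPM (-0.05, SE 0.0875). The groups overlapped in all 4 genes. The 95% interval of the fold was 0.965 to 1.1 for Ifnar1, 0.972 to 1.12 for Ifngr2, 0.906 to 1.09 for Ifnar2 and 0.849 to 1.1 for Il10rb, each below the ratio of 1.5 that 3 copies against 2 would give. Per library, the median fold of the 4 genes over the WT mean ran from 0.954 to 1.05 in Dp16_2xIFNRs and from 0.893 to 1.11 in WT. In the 6 Dp16 libraries the same value ran from 1.41 to 1.56, so that in none of the 6 Dp16_2xIFNRs libraries did the receptor genes go against the genotype label.

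On both sides of the receptor genes the level stepped up, less evenly on the side of Ifnar2. The cluster spans chromosome 16 from 91372783 to 91565623 (GRCm38), from the start of Ifnar2 to the end of Ifngr2. The nearest tested protein-coding genes were Olig1, Olig2, 4932438H23Rik, Paxbp1, Synj1 and Cfap298 on one side and Tmem50b, Dnajc28, Gart, Son, Donson and Cryzl1 on the other. All 12 lay above WT, with a median fold of 1.49, and 8 were called higher, where 0.737% of all tested genes were called higher. Tmem50b, the first gene past Ifngr2, read 67.6, 71.4 and 76.7 CPM in WT and 107, 109 and 118 CPM in Dp16_2xIFNRs (1.54-fold, adjusted p = 2.45e-08). Gart, an enzyme of purine synthesis, read 29.2, 30.6 and 31.4 CPM in WT and 45.3, 45.8 and 48.99 CPM in Dp16_2xIFNRs (1.52-fold, adjusted p = 8.27e-09). No WT library reached the lowest Dp16_2xIFNRs library in either gene. Cryzl1 had the smallest p-value of the segment, with 38.6, 40.6 and 43.96 CPM against 58.2, 62.5 and 64.03 CPM (1.52-fold, adjusted p = 1.72e-09).

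**Figure D1:**
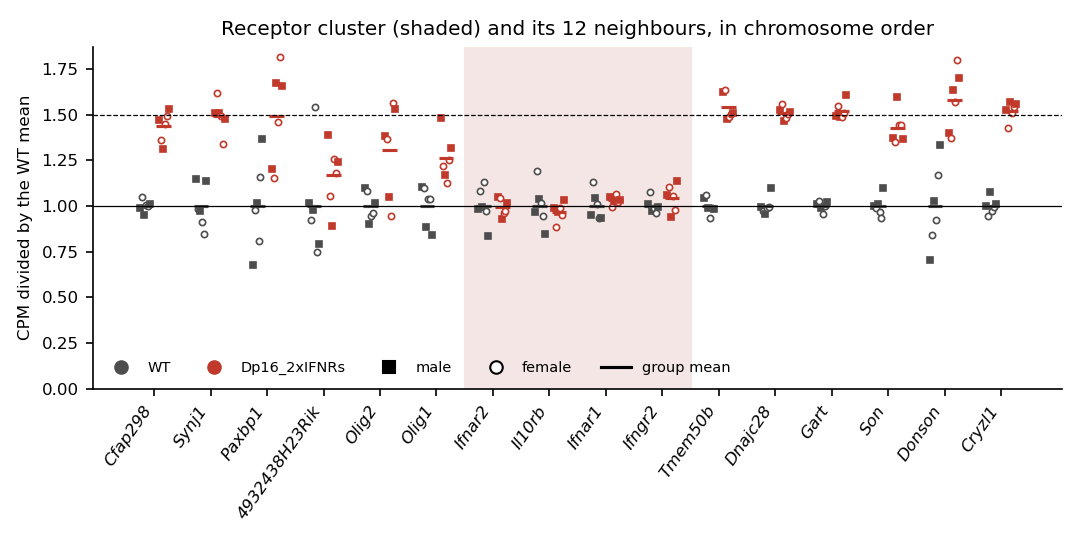
CPM of each library divided by the WT mean of the gene (vertical axis) for the 4 receptor genes (shaded) and the 6 tested protein-coding genes on each side, in chromosome order. Squares are males, open circles females, and short bars group means. The receptor genes of Dp16_2xIFNRs libraries lie around 1, and the fitted folds of the 12 neighbours run from 1.17 to 1.58.

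The oligodendrocyte transcription factor genes next to Ifnar2 had lower folds than most of the 12. Olig1 read 115, 142 and 151 CPM in WT and 154, 169 and 203 CPM in Dp16_2xIFNRs (1.26-fold, 95% interval 1.12 to 1.42, adjusted p = 0.0495), and the groups did not overlap. Its call ended without any of 10 of the 12 libraries, and the adjusted p was at most 0.11, without Dp16_2xIFNRs replicate 6, and 0.143 with the identifier block. Olig2 read 32.4, 35.6 and 39.6 CPM against 34.1, 49.6 and 56.4 CPM (1.31-fold, adjusted p = 0.134) and was not called. On the same side, 4932438H23Rik read 0.722, 0.92 and 1.49 CPM against 0.859, 1.17 and 1.34 CPM and was not called either. Paxbp1 (1.49-fold, adjusted p = 0.238) and Donson (1.58-fold, adjusted p = 0.0531) had folds near 1.5 but a wide spread within the groups, with WT libraries of Paxbp1 from 20.1 to 40.6 CPM. A non-coding gene inside the cluster, A930006K02Rik, was the only other tested gene there and read 0.386, 0.589 and 0.804 CPM in WT and 0.293, 0.459 and 0.601 CPM in Dp16_2xIFNRs (fold 0.778, 95% interval 0.534 to 1.13). Its interval ended below 1.5.

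Over the whole duplicated segment, from Lipi to Zbtb21 at chromosome 16 positions 75540514 to 97962622, genes were raised by close to the copy ratio. Of 380 segment genes other than the receptor genes, 111 had enough counts to be tested, 87 of them protein-coding. The median fold was 1.47, with quartiles of 1.33 and 1.55, and 109 genes lay above WT. A total of 63 were called higher (47 with the identifier block) and 0 lower, where 0.31% of all tested genes were called lower. In 62 genes every Dp16_2xIFNRs library exceeded every WT library, against 0.93% of all tested genes. Since expression varied between genes, the well-measured ones were looked at apart. Among the 57 genes at 10 CPM or more in WT, 51 were called, 52 had folds between 1.3 and 1.7, and folds ran from 1.15 to 1.74. Below 10 CPM, 12 of 54 genes were called, and folds ran from 0.778 to 2.85 around a median of 1.48. The lowest was that of A930006K02Rik, which lies inside the receptor cluster and may not be at 3 copies. Per library the median fold of the segment ran from 1.44 to 1.49 in Dp16_2xIFNRs, and from 0.994 to 1.01 in WT. By sex the median was 1.43 in females and 1.47 in males.

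**Figure D2:**
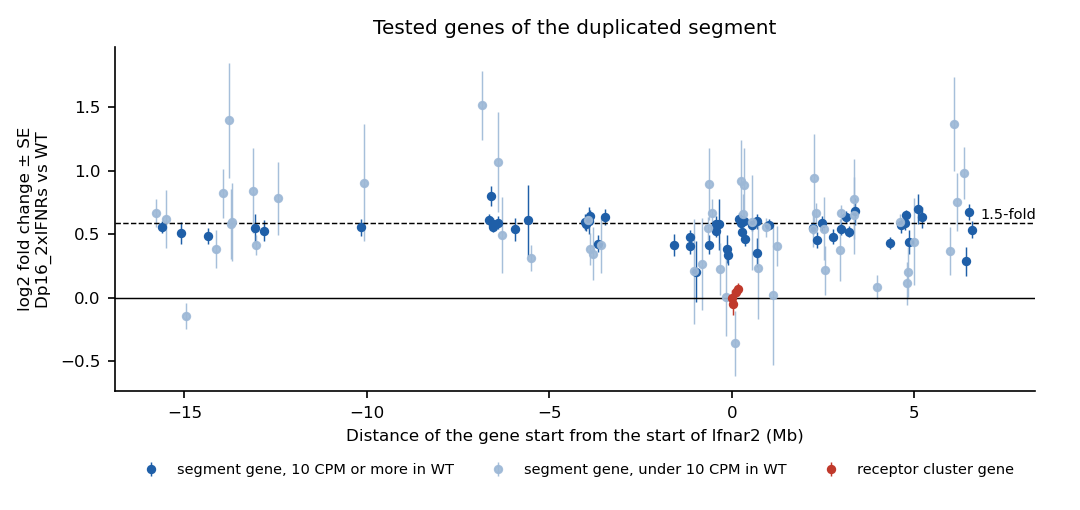
Log2 fold change of Dp16_2xIFNRs against WT with its SE (vertical axis) for the 115 tested segment genes by distance in Mb from the start of Ifnar2 (horizontal axis). Dark points are genes at 10 CPM or more in WT, pale points less expressed genes, and red points the 4 receptor genes, which lie at 0 while most of the dark points lie near the dashed line of the 1.5-fold ratio.

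Genes known for their part in neurodegeneration and signalling in trisomy 21 were among the 63. App, the amyloid precursor gene, read 1710.3, 1878 and 2083 CPM in WT and 2738, 2854 and 3003 CPM in Dp16_2xIFNRs (1.51-fold, adjusted p = 7.69e-07). Sod1, a superoxide dismutase, read 168, 179.95 and 197 CPM in WT and 244, 254 and 263 CPM in Dp16_2xIFNRs (1.39-fold, adjusted p = 3.43e-06), and its 95% interval, from 1.297 to 1.499, ended just below 1.5. In both genes the groups were fully apart. The protein kinase gene Dyrk1a read 84.3, 92.5 and 97.1 CPM against 125, 133 and 141 CPM (1.43-fold, adjusted p = 5.77e-07). Rcan1, an inhibitor of the phosphatase calcineurin, read 53.1, 55.1 and 61.95 CPM against 79.04, 83.7 and 88.1 CPM (1.49-fold, adjusted p = 4.7e-08). Neither gene showed overlap between the groups.

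Several called genes of the segment act in neurons. Synj1, a lipid phosphatase of synaptic vesicle recycling, rose 1.5-fold from WT libraries of 324, 376 and 439 CPM to 513, 575 and 621 CPM (adjusted p = 1.01e-05). Its partner in endocytosis Itsn1, a scaffold protein, rose 1.38-fold (95% interval 1.27 to 1.49, adjusted p = 2.13e-05). Kcnj6, the potassium channel subunit GIRK2, went from 17.2, 20.8 and 28.7 CPM to 31.5, 35.7 and 38.8 CPM (1.6-fold, adjusted p = 0.00163), so that the highest WT library stayed below the lowest Dp16_2xIFNRs library, but the adjusted p was 0.0603 with the identifier block. Ttc3, a ubiquitin ligase, rose 1.46-fold and Son, a splicing cofactor, 1.43-fold. Others are expressed in most cell types. The chaperonin subunit gene Cct8 went from 115, 122 and 133 CPM to 187, 193 and 199.9 CPM (1.56-fold, adjusted p = 1.17e-08). Atp5j, a subunit of mitochondrial ATP synthase, rose 1.47-fold, Wrb, which inserts tail-anchored proteins into the endoplasmic reticulum, 1.57-fold, Vps26c, a subunit of an endosomal sorting complex, 1.55-fold, the transcription factor gene Gabpa 1.49-fold and the heat shock family gene Hspa13 1.47-fold. The calls named in this group, from Synj1 to Hspa13, held when any single library was left out.

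In some segment genes the interval of the fold excluded the copy ratio. The 95% interval of the fold ended below 1.5 in 14 of the 111 genes and began above 1.5 in 2, and it lay wholly above 1 in 88. These intervals were not adjusted for the number of genes, so some of the 111 would miss 1.5 by chance. The 14 were Gm9843, Btg3, Adamts5, Bach1, Sod1, Scaf4, Urb1, Olig1, A930006K02Rik, Itsn1, Erg, Ets2, Lca5l and Prdm15. Of these, A930006K02Rik lies inside the receptor cluster and its copy number is not stated, so it may not be at 3 copies. Ets2, a transcription factor gene, read 70.1, 72.7 and 80.8 CPM in WT and 95.97, 98.8 and 106 CPM in Dp16_2xIFNRs (1.34-fold, interval 1.25 to 1.44, adjusted p = 9.07e-06), and Bach1, a repressor of antioxidant genes, 13.01, 15.8 and 17.2 CPM against 18.9, 20.96 and 22.3 CPM (1.34-fold, interval 1.21 to 1.49, adjusted p = 0.00157). Neither gene showed overlap between the groups, although both intervals ended below the copy ratio. Erg, a transcription factor of endothelial cells, read 6.56, 8.12 and 10.01 CPM in WT and 6.82, 8.61 and 10.1 CPM in Dp16_2xIFNRs (1.06-fold, 95% interval 0.922 to 1.22), with groups that overlapped over almost their whole range. Prdm15 (1.22-fold, interval 1.03 to 1.44) was low as well, and so was the processed pseudogene Gm9843 (0.903-fold, interval 0.777 to 1.05), whose reads can be shared with its parent gene. Hunk, a protein kinase gene, had a fold of 1.15 with an interval of 0.804 to 1.65, and Slc5a3, an inositol transporter gene that overlaps Mrps6, one of 1.28 with 1.08 to 1.51, so that neither interval excluded 1.5. At the other end stood A730009L09Rik (2.85-fold, interval 1.91 to 4.27, adjusted p = 0.00434, and 0.571 with the identifier block) and Jam2, a junctional adhesion molecule, which read 44.3, 58.8 and 65.9 CPM in WT and 87.3, 102 and 107 CPM in Dp16_2xIFNRs (1.74-fold, interval 1.54 to 1.96). Of the interferon-induced antiviral GTPase genes that lie in the segment, Mx1 read 0.0206, 0.21 and 0.373 CPM against 0.259, 0.489 and 0.693 CPM (adjusted p = 0.0958) and Mx2 0.518, 0.73 and 0.933 CPM against 0.599, 1.22 and 1.64 CPM (adjusted p = 0.145). Both were barely expressed, their groups overlapped, and neither was called.

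Higher calls on chromosome 16 ended with the segment. Of 455 tested chromosome 16 genes outside it, 0 were called higher and 3 lower, and their median log2 fold change was 0.00. The 4 tested genes in the 5 Mb proximal of the segment had a median of 0.02 and 0 calls. On the telomere side, the 2 tested genes both lay above WT, with a median of 0.18 and 0 calls. So few genes were tested near either edge that where the rise ends is not well resolved.

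Outside the segment 133 of 18602 genes were called, which is 0.715%. They comprised 75 genes called higher (0.403%) and 58 called lower (0.312%). Most changes were small. The median fold was 1.46 among the genes that rose and 0.784 among those that fell, 10 genes rose by 2-fold or more, and 3 fell by that factor. Each of the 133 went the same way in females and in males, which their selection over these same libraries largely fixes. The groups did not overlap in 53 genes that rose (against 0.93% of all tested genes) and 31 that fell (against 0.411%). The 0.93% includes segment genes. Outside the segment, 112 of 18602 tested genes were fully apart in the higher direction and 77 in the lower. Selection of the 133 over these same libraries largely fixes the 53 and the 31, so this comparison does not test them. A total of 34 higher and 14 lower calls held when any single library was left out. With the identifier block 13 genes were called, among them 9 of the 75 and 2 of the 58, and DESeq2 called 327. Of the genes named below, a, Selenov, Sycp3, Abca8a, Slc5a5, Apln, Gm48678 and Rec8 kept their call with the block, and the other 40 lost it. All 133 had the same direction in that fit, which reuses the libraries that selected them. The count itself moved with single libraries, from 63 without Dp16_2xIFNRs replicate 2 to 206 without WT replicate 6, where 70 were higher and 136 lower. Without Dp16_2xIFNRs replicate 1 it was 138, with 55 higher and 83 lower. Leaving out WT replicate 2, 3 or 4 gave 67, 87 or 88 genes. Leaving out Dp16_2xIFNRs replicate 3, 4 or 5 gave 73, 79 or 81.

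**Figure D3:**
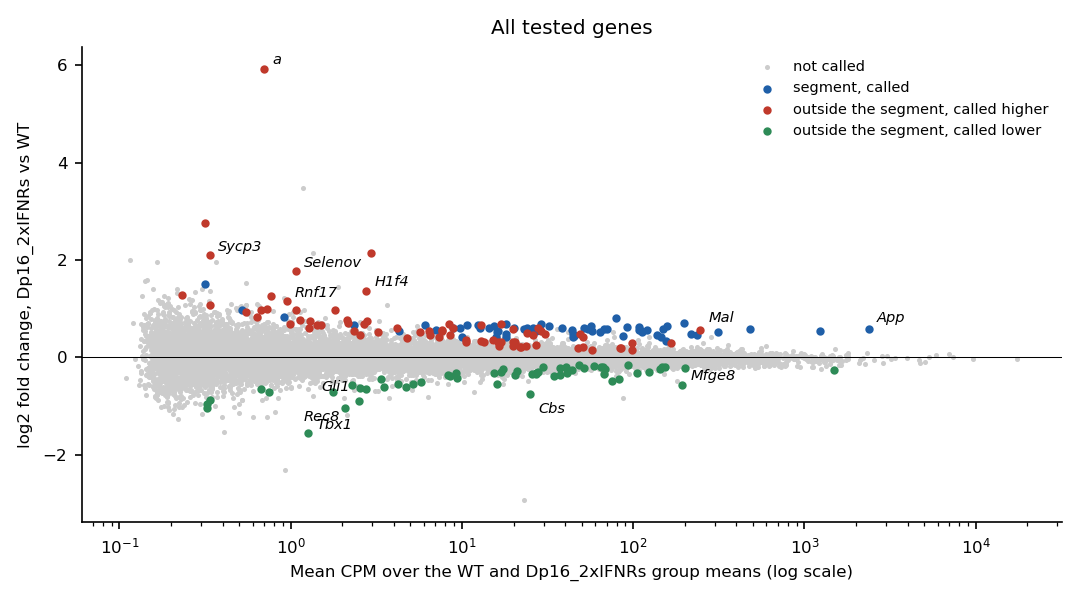
Log2 fold change of Dp16_2xIFNRs against WT (vertical axis) by mean CPM of both groups on a log scale (horizontal axis) for the 18717 tested genes. Grey points were not called, and coloured points were called in the segment (blue), higher outside it (red) or lower outside it (green). Many called segment genes lie near 0.58, and some lie off it, such as A730009L09Rik at 1.51 and Bach1 at 0.43. The nonagouti gene a stands alone at the top.

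No other gene outside the segment changed by as much as a, the nonagouti gene (GRCm38, chromosome 2 from 154791402 to 155051012). Its product antagonises melanocortin receptors and is known from the control of coat colour in skin. WT libraries held 0 to 2 counts of it and 6 in all, and Dp16_2xIFNRs libraries 57 to 103 and 463 in all (log2 fold change 5.93, SE 0.325, adjusted p = 1.45e-09). That was 0.0204 ± 0.0184 CPM in WT and 1.37 ± 0.313 CPM in Dp16_2xIFNRs (mean ± SD, n = 6), a low level without overlap between the groups. WT mice were labelled as C57BL/6J, and the strain background of the duplication genotypes is not stated. A difference of strain therefore cannot be told apart from the duplication at this gene. Genes around a were little changed. Of 243 other tested genes within 10 Mb, 2 were called, against the 0.715% of all genes outside the segment, and their median log2 fold change was 0.00. The called neighbours were Tomm34, a mitochondrial import gene (1.14-fold, adjusted p = 0.00404), and the non-coding Gm14246 (log2 fold change -1.04, adjusted p = 0.0358). The call of Gm14246 ended without 9 of the 12 libraries, and the adjusted p was at most 0.105, without Dp16_2xIFNRs replicate 2. With the identifier block the adjusted p was 0.487 for both Tomm34 and Gm14246.

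Genes known from germ cells changed in both directions. Sycp3, a part of the axis of meiotic chromosomes, on chromosome 10 from 88459569 to 88473236, read 0.0618, 0.135 and 0.175 CPM in WT and 0.28, 0.504 and 0.826 CPM in Dp16_2xIFNRs (4.27-fold, adjusted p = 0.000907). Rnf17, a Tudor domain gene of male germ cells, read 0.289, 0.58 and 0.855 CPM in WT and 1.04, 1.28 and 1.7 CPM in Dp16_2xIFNRs (2.22-fold, adjusted p = 0.00403). In both the lowest Dp16_2xIFNRs library stood above the highest WT library. Rec8, the cohesin subunit of meiosis, on chromosome 14 from 55618037 to 55625395, went the other way, from 2.003, 2.76 and 3.69 CPM to 0.897, 1.2 and 1.94 CPM (fold 0.483, adjusted p = 0.0127), also without overlap. Of 30 listed meiotic and germline genes, 16 were tested, 13 lay above WT, 2 were called higher and 1 lower. Among tested genes outside the segment 9281 of 18602 lay above WT, 0.403% were called higher and 0.312% lower. The median of the log2 fold changes of the 16 was 0.16. The call of Rnf17 ended with the identifier block (adjusted p = 0.106).

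The promoter of Sycp3 is shown because genes of this class are known to carry E-box sites, and it holds a pair. The run comes from RefSeq (GRCm38.p6), chr10:88459488-88459586 on the plus strand, and capitals mark the E-box CACGTG, whose first bases lie 64 and 43 bases before the transcript start.
Sycp3: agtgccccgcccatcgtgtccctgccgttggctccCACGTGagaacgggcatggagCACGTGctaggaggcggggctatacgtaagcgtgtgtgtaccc
CACGTG, which reads the same on both strands, was found in 7.15% of 32851 promoters of 300 bases and in 9.18% of the promoters of tested genes. It was found in 4 of 71 promoters of genes called higher outside the segment and in 6 of 60 promoters of genes called lower. A match is a description of the letters and not of binding.

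Further genes rose in a way that no single library decided. Selenov, a testis-enriched selenoprotein gene on chromosome 7 from 28284652 to 28291186, read 0.414, 0.431 and 0.675 CPM in WT and 1.4, 1.64 and 1.94 CPM in Dp16_2xIFNRs (3.41-fold, adjusted p = 5.99e-06). Abca8a, a lipid transporter gene, read 8.05, 10.5 and 10.8 CPM in WT and 14.3, 15.9 and 17.96 CPM in Dp16_2xIFNRs (1.59-fold, adjusted p = 3.37e-05). The groups lay far apart in both. Slc5a5, the sodium iodide symporter gene, read 18.6, 19.7 and 21.01 CPM against 23.9, 27.6 and 31.96 CPM (1.41-fold, adjusted p = 0.00017). Apln, a peptide hormone that acts on endothelium and heart, read 31.4, 42.1 and 45.9 CPM against 52.8, 56.7 and 60.6 CPM (1.39-fold, adjusted p = 0.00239), and Gja5, the connexin of arterial endothelium, 0.35, 0.477 and 0.639 CPM against 0.836, 0.986 and 1.1 CPM (1.997-fold, adjusted p = 0.00176). Apln and Gja5 are known from the vascular system, and neither showed overlap between the groups. Gja5 was the only called one of 10 arterial endothelial markers, whose median log2 fold change was 0.00, and of 12 brain endothelial markers 0 were called. The adjusted p of Gja5 was 0.307 with the identifier block.

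Among genes known from neurons and glia, Vamp1, Cort and Mal rose. Vamp1, a vesicle fusion protein of fast-firing neurons, went from 132, 147 and 171 CPM to 177, 183 and 189 CPM (1.23-fold, adjusted p = 0.00379). Cort, the neuropeptide cortistatin of some GABAergic interneurons, went from 4.996, 6.42 and 8.34 CPM to 8.77, 10.3 and 12.4 CPM (1.6-fold, adjusted p = 0.00207). Of 20 tested GABAergic markers it was the 1 called, 10 lay above WT, and the median was 0.01. Mal, a proteolipid of compact myelin, went from 182, 195 and 229.7 CPM to 264, 288 and 337 CPM (1.46-fold, adjusted p = 0.00397), with no overlap. It was the only called gene of 14 markers of mature oligodendrocytes, of which 13 lay above WT with a median of 0.12, and 0.09 without WT replicate 6. All 7 tested markers of oligodendrocyte precursors lay below WT, with a median of -0.11 (-0.18 without WT replicate 6) and 0 calls. Trim17, a ubiquitin ligase gene, rose 1.46-fold, the exocyst-related gene Exoc3l4 1.97-fold and the integrin gene Itgb7 1.89-fold, with adjusted p of 0.00239, 0.00277 and 0.0086. Itgb7 was low, at 0.307, 0.37 and 0.498 CPM in WT and 0.566, 0.7 and 0.857 CPM in Dp16_2xIFNRs. Among non-coding genes without a proper name, Gm48678 rose 4.4-fold (adjusted p = 0.000294) and Gm28322 6.81-fold (adjusted p = 0.0087). Gm28322 was near the floor, at 0, 0.0829 and 0.144 CPM in WT and 0.276, 0.499 and 0.934 CPM in Dp16_2xIFNRs. The identifier block gave adjusted p of 0.174 for Vamp1, 0.155 for Cort, 0.176 for Mal, 0.079 for Trim17, 0.0535 for Exoc3l4, 0.31 for Itgb7 and 0.0598 for Gm28322.

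Histone genes lay mostly above WT. The linker histone gene H1f4 read 1.12, 1.44 and 2.26 CPM in WT and 1.93, 4.25 and 5.34 CPM in Dp16_2xIFNRs (2.58-fold, adjusted p = 0.0112), and its groups overlapped. H1f2, another linker histone gene, read 8.99, 13.4 and 15.2 CPM in WT and 17.5, 21.1 and 24.9 CPM in Dp16_2xIFNRs (1.61-fold, adjusted p = 0.0154), and H4c9, which encodes histone H4, 0.726, 0.799 and 1.01 CPM against 1.25, 1.38 and 1.77 CPM (1.69-fold, adjusted p = 0.00844). In these last genes the groups did not overlap. Of 68 listed histone genes, 19 were tested, 16 lay above WT, 3 were called higher and 0 lower, and the median log2 fold change was 0.39, where that of all tested genes was 0.00. Without WT replicate 6, H1f10 was also called lower. None of the 3 calls held with the identifier block (adjusted p of 0.341 for H4c9, 0.192 for H1f2 and 0.516 for H1f4). Most histone transcripts lack a poly(A) tail, so selection for polyadenylated RNA recovers only part of them, and near-identical copies can share reads.

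**Figure D4:**
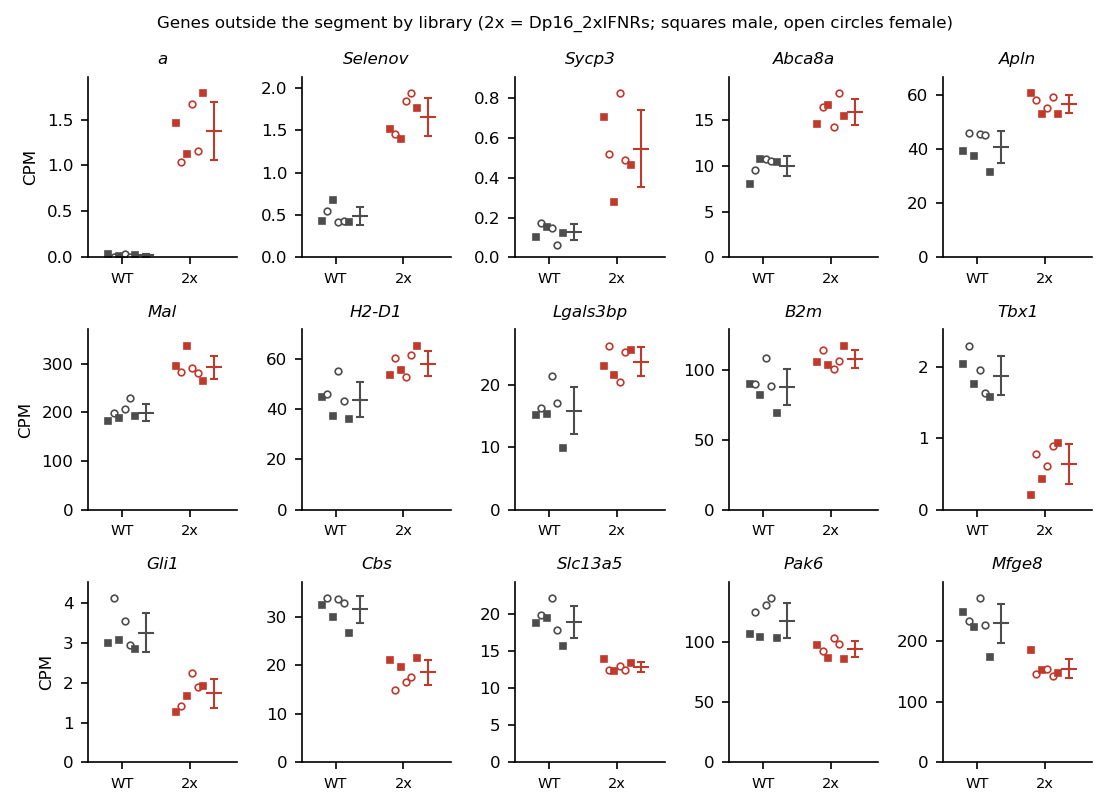
CPM per library (vertical axes, each starting at 0) of 15 genes outside the segment in WT and in Dp16_2xIFNRs (2x). Squares are males, open circles females, and bars give the mean ± SD over 6 libraries. The groups lie apart in a, Selenov, Sycp3, Abca8a, Apln, Mal, Tbx1, Gli1, Cbs, Slc13a5 and Pak6, and overlap in H2-D1, Lgals3bp, B2m and Mfge8.

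Among genes that fell, several are regulators of development. Tbx1, a transcription factor gene whose human counterpart lies in the DiGeorge syndrome deletion, is on chromosome 16 from 18580979 to 18590671, outside the duplicated segment. It read 1.57, 1.85 and 2.29 CPM in WT and 0.212, 0.696 and 0.929 CPM in Dp16_2xIFNRs (fold 0.341, adjusted p = 0.00727). Every Dp16_2xIFNRs library lay below every WT library. The other called genes of chromosome 16 outside the segment were Zdhhc8, a palmitoyltransferase gene (fold 0.866, adjusted p = 0.0455), and Slc15a2, a peptide transporter gene (fold 0.772, adjusted p = 0.022). Their calls depended on single libraries, the adjusted p being at most 0.128 for Zdhhc8, without WT replicate 2, and 0.0688 for Slc15a2, without Dp16_2xIFNRs replicate 5. Gli1, a transcription factor that is itself a target of hedgehog signalling, on chromosome 10 from 127329882 to 127341974, read 2.86, 3.04 and 4.12 CPM in WT and 1.27, 1.78 and 2.25 CPM in Dp16_2xIFNRs (fold 0.534, adjusted p = 0.00159), without overlap. Of 12 hedgehog pathway genes tested, 9 lay below WT and Gli1 alone was called, and without WT replicate 6 the receptor gene Ptch1 was called lower as well. Sox4, a transcription factor of immature neurons, fell to 0.791-fold (adjusted p = 0.022), a call that ended at 0.069 without Dp16_2xIFNRs replicate 2. It was the only called one of 18 proliferation and immature neuron genes, 15 of which lay below WT with a median of -0.10. All calls named in this paragraph ended with the identifier block, with adjusted p of 0.524 for Tbx1, 0.181 for Gli1, 0.356 for Sox4, 0.412 for Slc15a2 and 0.597 for Zdhhc8.

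Cbs and Slc13a5 also fell. Cbs encodes cystathionine beta-synthase, the first enzyme of transsulfuration. Its human orthologue lies on chromosome 21, but the mouse gene is on chromosome 17 from 31608894 to 31637238 and is not duplicated here. Cbs read 26.6, 32.7 and 33.8 CPM in WT and 14.9, 18.7 and 21.5 CPM in Dp16_2xIFNRs (fold 0.589, adjusted p = 4.36e-05). The groups were apart, and the log2 change was -1.04 in females and -0.51 in males. Of 36 tested genes with human chromosome 21 orthologues outside the segment, Cbs was the only one called, 17 lay above WT, and the median was -0.01. In the list of 17 one-carbon and transsulfuration genes, Mthfd2 of mitochondrial folate metabolism went the other way (1.47-fold, adjusted p = 0.0328, and up to 0.0915 without Dp16_2xIFNRs replicate 2). Slc13a5, the citrate transporter gene, read 15.7, 19.2 and 22.2 CPM in WT and 12.3, 12.8 and 13.9 CPM in Dp16_2xIFNRs (fold 0.683, adjusted p = 0.000357), again without overlap. With the identifier block the adjusted p was 0.293 for Cbs, 0.168 for Slc13a5 and 0.659 for Mthfd2.

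Several genes that astrocytes express fell. Mfge8, a secreted protein that bridges cells to phagocytes, read 174, 229.99 and 271 CPM in WT and 143, 150.3 and 185 CPM in Dp16_2xIFNRs (fold 0.677, adjusted p = 0.00243). Adgrg1, an adhesion receptor gene, went from 68.8, 90.3 and 97.3 CPM to 57.4, 60.6 and 75.6 CPM (fold 0.713, adjusted p = 0.00456), and Kcnj16, an inward rectifier potassium channel gene, from 29.6, 39.6 and 45.2 CPM to 27.5, 29.4 and 32.6 CPM (fold 0.766, adjusted p = 0.00901). In both, as in Mfge8, WT replicate 6 was the only WT library within the Dp16_2xIFNRs range. Fgfr3, a growth factor receptor gene, fell to 0.81-fold (adjusted p = 0.0464, and up to 0.133 without Dp16_2xIFNRs replicate 5). Grin2c, an NMDA receptor subunit gene, fell to 0.785-fold (adjusted p = 0.022, and up to 0.0634 without Dp16_2xIFNRs replicate 4). Mfge8 and Fgfr3 were the called members among 18 markers of homeostatic astrocytes, 10 of which lay above WT with a median of 0.01. Without WT replicate 6 the median of that list was -0.06 and 3 members, Fgfr3, Gpc5 and Mfge8, were called lower. Adjusted p with the identifier block were 0.192 for Mfge8, 0.43 for Adgrg1, 0.331 for Kcnj16, 0.681 for Fgfr3 and 0.476 for Grin2c.

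The remaining named decreases were in signalling and chromatin genes. Pak6, a p21-activated kinase gene, read 104, 116 and 136 CPM in WT and 85.9, 95.1 and 103 CPM in Dp16_2xIFNRs (fold 0.803, adjusted p = 0.00176). Dyrk1b, the paralogue of the duplicated kinase gene Dyrk1a, read 27.9, 30.03 and 33.6 CPM in WT and 21.9, 22.8 and 26.9 CPM in Dp16_2xIFNRs (fold 0.787, adjusted p = 0.00564). In neither did the groups overlap. The somatostatin receptor gene Sstr3 of neuronal cilia fell to 0.802-fold (adjusted p = 0.0118), Mxd4, which encodes a partner of MAX, to 0.737-fold (adjusted p = 0.00800), and the chromatin reader gene Brpf3 to 0.839-fold (adjusted p = 0.0119). These calls ended with the identifier block, at adjusted p of 0.181 for Pak6, 0.209 for Dyrk1b, 0.395 for Sstr3, 0.154 for Mxd4 and 0.423 for Brpf3. Of 22 tested glutamate receptor genes Grin2c was the only one called, and of 12 GABA-A receptor subunit genes and 26 voltage-gated potassium channel genes 0 were called, with medians of -0.06 and -0.04.

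Interferon-stimulated genes lay mostly above WT while the receptor genes lay close to it. The list of type I targets outside the segment had 49 tested genes, and 46 were above WT (median log2 fold change 0.22), where 9392 of all 18717 tested genes lay above WT. Differences of single genes were small, and 2 of the 49 were called. Lgals3bp, a secreted glycoprotein gene, read 9.94, 15.8 and 21.5 CPM in WT and 20.5, 24.2 and 26.3 CPM in Dp16_2xIFNRs (1.5-fold, adjusted p = 0.00727). Ifi27 read 13.2, 14.4 and 15.99 CPM in WT and 15.6, 18.2 and 19.6 CPM in Dp16_2xIFNRs (1.24-fold, adjusted p = 0.0313), a call that ended at up to 0.0844 without Dp16_2xIFNRs replicate 6. The groups overlapped in both genes, in Lgals3bp through WT replicate 4 alone. With the identifier block the adjusted p was 0.642 for Lgals3bp and 0.442 for Ifi27. Not called were Bst2, which tethers viruses (log2 fold change 0.49, adjusted p = 0.0762), and the antiviral genes Ifit1 (0.50, adjusted p = 0.172), Isg15 (0.45, adjusted p = 0.222), Rsad2 (0.43, adjusted p = 0.237) and Ifit3b (0.39, adjusted p = 0.216). The mean log2 CPM of the list relative to the WT mean ran from -0.26 to 0.27 in WT libraries and from 0.08 to 0.45 in Dp16_2xIFNRs libraries. Without WT replicate 6, 43 of the 49 lay above WT, the median was 0.17, and 1 was called.

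Promoters of this list are shown for the response element that the interferon-activated transcription factor complex binds. The 4 members of smallest p among those that carry the element core before their start are given, together with B2m, the only called antigen presentation gene with it. Runs come from RefSeq (GRCm38.p6), 5′ to 3′ along the gene, and capitals mark the core of the element, the half-site GAAA and another GAAA after 2 bases of any kind, or its reverse complement with TTTC. Positions are chr8:71537538-71537637 for Bst2 (minus strand), chr19:34640750-34640849 for Ifit1 (plus), chr19:34607734-34607833 for Ifit3b (plus), chr4:156200832-156200931 for Isg15 (minus) and chr2:122147513-122147612 for B2m (plus).
Bst2: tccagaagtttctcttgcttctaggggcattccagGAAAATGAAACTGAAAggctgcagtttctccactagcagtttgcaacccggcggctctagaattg
Ifit1: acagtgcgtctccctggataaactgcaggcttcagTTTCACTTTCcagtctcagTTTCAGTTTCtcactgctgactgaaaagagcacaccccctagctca
Ifit3b: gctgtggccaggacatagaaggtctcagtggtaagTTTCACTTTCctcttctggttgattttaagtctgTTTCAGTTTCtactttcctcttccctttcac
Isg15: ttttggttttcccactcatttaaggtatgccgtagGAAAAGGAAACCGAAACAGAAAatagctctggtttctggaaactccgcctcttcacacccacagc
B2m: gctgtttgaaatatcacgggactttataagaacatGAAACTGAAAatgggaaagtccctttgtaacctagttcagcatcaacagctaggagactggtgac
Bst2 and Isg15 hold overlapping copies, and Ifit1 and Ifit3b hold a pair each. The core, searched on both strands, was present in 39.5% of the promoters of the type I list that matched (17 of 43), in 3.44% of all 32851 promoters and in 3.0% of those of tested genes. Among promoters of genes called higher outside the segment the share was 4.23%, in B2m, Vamp1 and Zfp982, and among those called lower 6.67%. Lgals3bp, H2-K1 and H2-D1 hold neither the core nor an E-box in these windows, which says only that the letters are not there.

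Antigen presentation genes lay mostly above WT as well. H2-D1, a class I heavy chain gene, read 36.2, 43.9 and 55.2 CPM in WT and 52.9, 57.8 and 65.1 CPM in Dp16_2xIFNRs (1.33-fold, adjusted p = 0.00387), and its call held without any single library. H2-K1, another heavy chain gene, read 18.8, 25.7 and 34.999 CPM in WT and 30.9, 35.98 and 39.9 CPM in Dp16_2xIFNRs (1.4-fold, adjusted p = 0.0194, and 0.056 without WT replicate 2). The light chain gene B2m read 69.3, 88.98 and 109 CPM in WT and 101, 106 and 117 CPM in Dp16_2xIFNRs (1.23-fold, adjusted p = 0.0399, and up to 0.104 without Dp16_2xIFNRs replicate 6). In these 3 genes WT replicate 4, and no other WT library, reached into the Dp16_2xIFNRs range. These calls ended with the identifier block, at adjusted p of 0.626 for H2-D1, 0.686 for H2-K1 and 0.663 for B2m. Reads of histocompatibility genes can be shared between near-identical copies. Of 19 class I and peptide loading genes, 14 lay above WT with a median of 0.25, and 12 with a median of 0.20 without WT replicate 6. Of all tested genes outside the segment, 9281 of 18602 lay above WT and 0.403% were called higher. All 7 class II genes lay above WT with a median of 0.61 and 0 calls, H2-Aa at 0.725, 1.53 and 2.33 CPM in WT and 1.91, 2.64 and 3.47 CPM in Dp16_2xIFNRs (adjusted p = 0.0882) and Cd74 at 2.22, 5.8 and 6.74 CPM against 6.35, 7.4 and 9.05 CPM (adjusted p = 0.145). Without WT replicate 6 the class II median was 0.45. The 16 tested genes induced by interferon gamma had a median of 0.33, 14 lay above WT and 0 were called, and the median was 0.23 without WT replicate 6. The kinases, STAT factors and feedback regulators of the JAK-STAT pathway showed no such shift, with 14 of 25 above WT, a median of 0.02 and 0 calls.

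Markers of other immune cells also lay above WT, and their part in the values of the interferon and antigen presentation lists was not tested. Lyz2, the lysozyme gene of macrophages and activated microglia, read 4.7, 7.27 and 7.99 CPM in WT and 10.4, 10.8 and 10.9 CPM in Dp16_2xIFNRs (1.53-fold, adjusted p = 0.00153, and 0.0669 with the identifier block), with no overlap. It was the 1 called of 18 tested markers of border macrophages and activated myeloid cells, of which 14 lay above WT with a median of 0.20, and 0.09 without WT replicate 6. The summed level of these markers was 105 to 164 CPM in WT and 134 to 151 in Dp16_2xIFNRs. Of 13 lymphocyte and neutrophil markers, 5 had enough counts to be tested and all 5 lay above WT (median 0.63, and 0.50 without WT replicate 6), with a summed level of 4.66 to 15.6 CPM in WT and 5.56 to 21.4 in Dp16_2xIFNRs. The T cell genes Cd3e, Cd3g and Cd8a and the B cell gene Ms4a1 were among those with too few counts. The 6 tested erythroid markers also lay above WT, at 36.9 to 55.8 CPM in WT and 37.9 to 105 in Dp16_2xIFNRs, with 0 calls. Their median of 0.40 was 0.15 without Dp16_2xIFNRs replicate 1.

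Homeostatic microglia genes lay mostly below WT. Of 18 markers, 15 lay below WT with a median of -0.15, and 0 were called. WT replicate 6 was the lowest of all 12 libraries in this list, at -0.44 on the log2 scale, where the other WT libraries ran from 0.02 to 0.18 and Dp16_2xIFNRs libraries from -0.22 to 0.02. Without it the median was -0.23, and members called lower included P2ry12, Sall1 and Selplg. Complement genes had 12 of 16 above WT with a median of 0.17, and 2 were called higher, C4b and C3. Among tested genes outside the segment 0.403% were called higher. Without WT replicate 6, C3 alone was called. C4b, a complement gene expressed by astrocytes and oligodendrocytes, read 16.6, 20.9 and 29.9 CPM in WT and 28.3, 29.9 and 45.2 CPM in Dp16_2xIFNRs (1.51-fold, adjusted p = 0.0405, and up to 0.104 without Dp16_2xIFNRs replicate 2). C3, the central complement component, read 0.207, 0.418 and 0.767 CPM in WT and 0.518, 0.924 and 2.07 CPM in Dp16_2xIFNRs. It rose 2.41-fold (adjusted p = 0.0284, and up to 0.103 without Dp16_2xIFNRs replicate 2). The groups overlapped in both C4b and C3. The identifier block gave 0.535 for C4b and 0.681 for C3. Of 17 reactive astrocyte genes, 14 lay above WT with a median of 0.20 (0.15 without WT replicate 6) and 0 were called, among them Lcn2 at 0.0771, 0.0997 and 0.433 CPM in WT and 0.38, 0.561 and 0.786 CPM in Dp16_2xIFNRs (adjusted p = 0.0525) and Serpina3n (log2 fold change 0.29, adjusted p = 0.156).

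**Figure D5:**
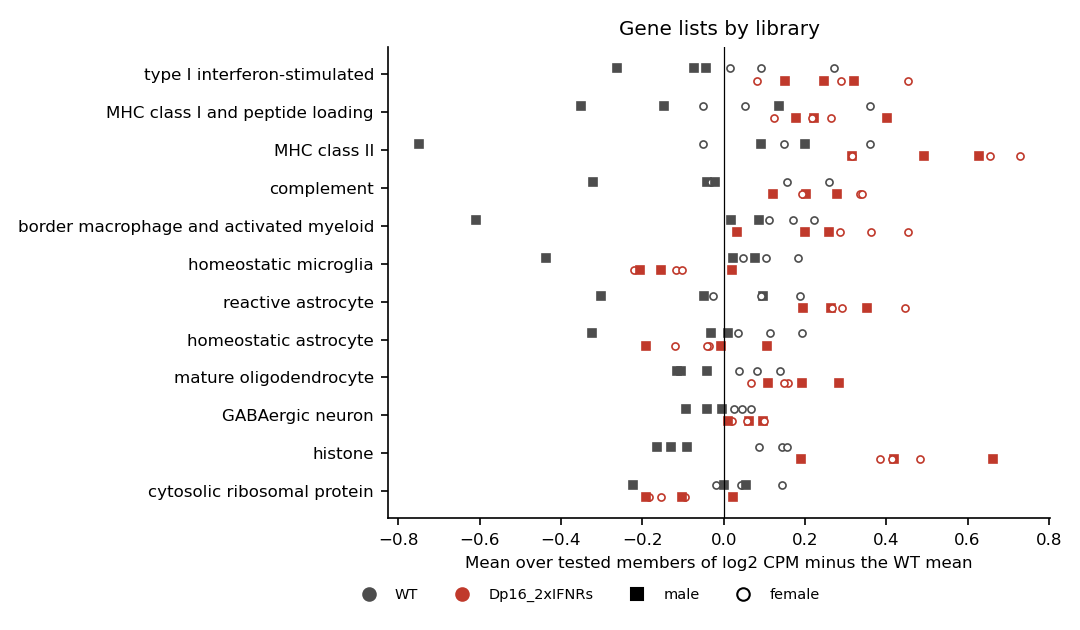
Mean over the tested members of a list of log2 CPM minus the WT mean (horizontal axis) for 12 gene lists in each WT (grey) and Dp16_2xIFNRs (red) library. Squares are males and open circles females. The histone and reactive astrocyte lists hold no overlap between groups, the latter narrowly (highest WT library 0.188, lowest Dp16_2xIFNRs library 0.196). The type I and complement lists overlap through 2 WT libraries each and the class II list through 1. The lowest grey square of most immune and glial lists is WT replicate 6.

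Genes of broad cellular programmes differed little. Of 80 cytosolic ribosomal protein genes, 78 lay below WT, where 9321 of 18602 tested genes outside the segment did. Their median was only -0.12 with 0 calls, and -0.17 with 6 genes called lower without WT replicate 6. Of 21 genes of the unfolded protein and integrated stress responses, 19 lay above WT, with a median of 0.12 and 0 calls, led by Atf5 (0.28, adjusted p = 0.0612) and Chac1 (0.47, adjusted p = 0.12). Motile cilia genes had 12 of 13 above WT, a median of 0.21 and 0 calls. Medians of the nuclear genes of the respiratory chain (-0.02), of ATP synthase outside the segment (0.00), of the mitochondrial genome (-0.02), of heat shock genes (0.05), of clustered protocadherins (-0.01) and of immediate early genes (0.00) lay near 0, and 0 genes of these lists were called. Also 0 were called among markers of cortical excitatory neurons (-0.05), all neurons (0.02), striatum (0.00) and mural and meningeal cells (0.02). Choroid plexus genes had a median of -0.28 and 0 calls and were highest in WT replicate 5, without which the median was 0.00. Without WT replicate 6, the lowest WT library in this list, it was -0.76, over 9 tested genes in place of 8. Ttr, their best known marker, stood at 1.87, 11.2 and 178 CPM in WT and 1.8, 5.54 and 13.1 CPM in Dp16_2xIFNRs.

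The effect was not shown to differ between the sexes. In the test of that difference edgeR called 0 of 18717 genes, with 1098 at an unadjusted p under 0.05 and a smallest adjusted p of 0.826, and limma-voom also called 0. DESeq2 called 2, Gpt, an aminotransferase gene, and Gpr22, an orphan receptor gene. By sex, log2 fold changes were 0.26 in females and 0.74 in males for H2-K1, 0.17 and 0.44 for B2m, and -0.72 and -0.40 for Mfge8, none of them called in the test of the difference. WT replicate 6, which stood apart in the lists, is a male.

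Against Dp16, the calls were the receptor genes. That contrast called 4 of 18717 genes, or 0.0214%, and they were Ifnar1, Ifnar2, Ifngr2 and Il10rb, at log2 differences of -0.50, -0.58, -0.56 and -0.54 (Dp16_2xIFNRs minus Dp16). DESeq2 and limma-voom called the same 4. Of the other genes 406 had an unadjusted p under 0.05, and 0 were called. Dp16 was compared with the same 6 WT libraries, so both sets of values share their controls. Side by side, the log2 fold change of Lgals3bp was 0.59 in Dp16_2xIFNRs and 0.68 in Dp16, that of H2-D1 0.42 and 0.37, and that of Cbs -0.76 and -0.56. For a, the 6 Dp16 libraries held 437 counts, from 59 to 86 per library, where Dp16_2xIFNRs libraries held 463. Sycp3 stood at 2.09 and 2.02, Selenov at 1.77 and 1.58, Abca8a at 0.67 and 0.56, Tbx1 at -1.55 and -1.80, and Gli1 at -0.91 and -0.90. The median of the type I list was 0.22 and 0.24, of class I genes 0.25 and 0.13, and of genes induced by interferon gamma 0.33 and 0.15. Medians taken against WT cannot be subtracted from each other. In the direct contrast of Dp16_2xIFNRs with Dp16 the medians of these lists were 0.009, 0.012 and 0.11, with 0 members called. Mal stood at 0.55 (adjusted p = 0.00397) in Dp16_2xIFNRs and at 0.40 (adjusted p = 0.0625) in Dp16, and Adgrg1 at -0.49 and -0.25, but the test of the difference itself gave an adjusted p of 1 for both Mal and Adgrg1.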

How the data were processed

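Libraries were made from poly(A)-selected cortex RNA with a strand-specific kit and sequenced as read pairs, per the labels' protocols. The submitters' processing notes name bcl2fastq, FastQC 0.11.5, HISAT2 2.1.0, SAMtools 1.5, HTSeq 0.6.1 and the genome build GRCm38. The strand setting of the counting is not given in the sources used here, so overlapping genes may share reads. The authors deposited read counts per gene for 18 libraries, which were tested as they stand. RPKM values deposited by the authors equal count over total and gene length in 31735 of 31735 genes (tolerance 1e-06) and served as that check only.

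Counts were fitted with edgeR 4.0.16 (R 4.3.3; TMM scaling, genes kept by filterByExpr with a minimum count of 10) in the quasi-likelihood test with genotype and sex as terms, over all 18 libraries, with 14 residual degrees of freedom and Benjamini-Hochberg adjustment over 18717 genes at a threshold of 0.05. DESeq2 1.42.0 and limma 3.58.1 (voom with quality weights) were alternatives, and the code was tested on simulated data. CPM are counts over the TMM-scaled library total. A 95% interval of a fold comes from the log2 fold change and its SE. Library totals limit precision mainly for genes under 1 CPM. Gene positions come from the annotation GENCODE M21 (GRCm38), promoters from RefSeq.

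Named are the receptor genes, their 6 tested protein-coding neighbours on each side, segment genes of smallest p, highest level or lowest fold, outside it the 15 called genes of largest and of smallest log2 fold change and of smallest p in each direction, called members of the 41 lists, or else up to 2 members of smallest p, and called neighbours of the gene a and on chromosome 16. A930006K02Rik, A730009L09Rik, Jam2, Ets2, Bach1, Mx1, Mx2, Gm48678, Gm28322, Ttr, Ifit1, Ifit3b, Isg15, Bst2, Rsad2, Cd74, Serpina3n, Chac1, Gpc5, H1f10, Ptch1, P2ry12, Sall1 and Selplg were named after their values were seen where that rule does not take them. The comparison and lists were chosen with earlier results of these data known. Samples were grouped by the labels' genotype. A fit with the identifier number in the labels' descriptions as a block was an alternative, since the meaning of that number is not stated there. All 3 pairs of WT and Dp16_2xIFNRs libraries that share it correlated above 0.1 in their deviations from the group means. Pairs that do not share it also passed 0.1, such as replicate 3 of both groups (0.295) and replicate 5 of both (0.272). Every pair above 0.1 was of the same sex, so a shared number cannot be told apart from shared sex in them. The correlations therefore cannot show whether the identifier number pairs libraries, and the main fit leaves it out. No 2 libraries agreed within sampling noise.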

Additional observations from a re-analysis of the deposited data

Results flagged for a closer look

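Single libraries stood away from the other 5 of their group in 13 of 206 gene and group combinations examined (the gap to the nearest library was more than 0.625 of the range), where chance gives about 1 in 20. In WT they were 4932438H23Rik in replicate 4 (1.49 CPM), Dnajc28 (12.6 CPM), Lyz2 (4.70 CPM) and Prdm15 (20.1 CPM) in replicate 6, Gm9843 (8.64 CPM) and Wrb (48.1 CPM) in replicate 3, and Lcn2 (0.433 CPM) and the choroid plexus gene Ttr (178 CPM) in replicate 5. In Dp16_2xIFNRs they were Adgrg1 (75.6 CPM), Mfge8 (185 CPM) and Hunk (49.96 CPM) in replicate 1, and Ifit3b (7.60 CPM) and Ttc3 (1552 CPM) in replicate 2. Of the called genes among them, Dnajc28, Lyz2, Wrb, Adgrg1, Mfge8 and Ttc3 kept their calls without the library in question.

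The tested difference between the duplication genotypes was called for the 4 receptor genes, with log2 values of Dp16_2xIFNRs minus Dp16 of -0.56 for Ifngr2, -0.50 for Ifnar1, -0.54 for Il10rb and -0.58 for Ifnar2.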

How the results depend on the processing

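The segment genes called (63) ran from 47 to 67 over all alternatives, and the 4 receptor genes were called in none of them. The 133 genes called outside the segment were less stable. The count was 327 with DESeq2 (176 higher and 151 lower, 133 shared), 214 with limma-voom (109 and 105) and 13 with the identifier number as a block (10 and 3, 11 shared), a fit in which the 7 libraries with a number of their own carry no weight. With the replicate number as a block it was 237 (128 and 109, 126 shared). Same-numbered libraries correlated at 0.0377 to 0.308, 5 of 6 pairs over 0.1, and 4 of 6 WT libraries correlated best with their own number. The pairs that share an identifier are among the same-numbered ones, and both libraries of every same-numbered pair are of the same sex. No pair of opposite sex passed 0.1. These correlations therefore cannot tell which number, if any, pairs mice, nor separate either number from shared sex. Leaving out 1 library gave 63 to 206 genes outside the segment. The median log2 fold change of the segment (0.557) ran from 0.545 to 0.574, the highest without WT replicate 3. The difference between the sexes was called in 2 genes with DESeq2. No tested gene or count named here reversed, but the split of calls turned to more lower than higher genes without WT replicate 6 (70 and 136) and without Dp16_2xIFNRs replicate 1 (55 and 83). List medians near 0 also changed sign, as for homeostatic astrocytes without WT replicate 6 (0.01 to -0.06). The identifier block ended no named call beyond those given with their values. The causes were not tested. At under 1 CPM, as in the WT libraries of Sycp3, Gja5, C3, Itgb7 and Gm28322, few counts limit the fold.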
